A study of Mus musculus with 2 samples.

Results

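Axin2 and 8 further genes that restrain or read out canonical Wnt signalling were followed here: Znrf3, Rnf43, Nkd1, Nkd2, Apcdd1, Kremen1, Bambi and Myc. They were chosen by name, as genes linked to Wnt feedback that, apart from Myc, act as inhibitors of signalling. The choice was made with earlier results of these data known. All 9 had a row with a single annotated symbol, 1 row each, among 19871 genes on the array. The cells were macrophages that had grown out of bone marrow of mice aged 8 weeks in L929-conditioned medium, a fibroblast supernatant that supplies macrophage colony-stimulating factor. There was 1 array of macrophages labelled beta-catenin deficient and 1 array of control macrophages, 2 arrays in all. The sources used here name no mouse strain, allele, Cre driver or number of animals, and no treatment beyond the growth medium. The values are RMA values on a log2 scale, so a difference of 1 is a doubling, and every difference is the array labelled deficient minus control. With 1 array per group there is no replicate error, so higher and lower describe these arrays and nothing was tested.

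In the canonical Wnt pathway, a Wnt ligand joins a Frizzled receptor to the co-receptor LRP5 or LRP6, the destruction complex built on axin is held back, and beta-catenin accumulates and activates genes together with TCF/LEF factors. Several of the genes that it activates encode inhibitors of the same pathway, at the receptor, at Dishevelled or in the destruction complex, which closes a negative feedback loop. Axin2 is a common readout of that loop because it is a direct target in many cell types, while Myc is activated by many other signals as well.

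The upstream sequences of the only members past 1.5-fold in either direction, Axin2 and Nkd2, are shown with that of Nkd1, the paralogue of Nkd2. Each run is the 250 bases before a RefSeq transcription start of the assembly GRCm38.p6, written 5′ to 3′ on the gene's strand, with CG dinucleotides in capitals. The windows lie at chr11:108920099-108920348 on the plus strand (Axin2), chr13:73847632-73847881 on the minus strand (Nkd2) and chr8:88527383-88527632 on the plus strand (Nkd1).
Axin2: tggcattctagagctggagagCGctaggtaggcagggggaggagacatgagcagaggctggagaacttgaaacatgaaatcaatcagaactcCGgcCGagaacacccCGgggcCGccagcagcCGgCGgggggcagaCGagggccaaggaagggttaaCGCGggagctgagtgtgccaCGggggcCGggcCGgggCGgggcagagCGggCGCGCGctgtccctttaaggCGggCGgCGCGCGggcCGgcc
Nkd2: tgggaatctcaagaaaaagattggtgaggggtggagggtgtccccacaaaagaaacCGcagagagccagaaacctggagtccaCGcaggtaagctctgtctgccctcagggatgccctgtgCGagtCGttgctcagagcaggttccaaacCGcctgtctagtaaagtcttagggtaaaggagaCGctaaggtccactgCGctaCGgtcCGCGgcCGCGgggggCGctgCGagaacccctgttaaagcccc
Nkd1: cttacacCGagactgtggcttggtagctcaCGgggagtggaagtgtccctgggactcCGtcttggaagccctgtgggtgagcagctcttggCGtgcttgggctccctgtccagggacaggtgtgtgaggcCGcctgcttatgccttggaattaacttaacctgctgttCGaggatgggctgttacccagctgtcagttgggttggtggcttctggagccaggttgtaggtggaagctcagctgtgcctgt

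The Axin2 window held 24 CG dinucleotides and was 69.2% G or C. Of the 32851 windows in the RefSeq promoter table, 12.0% held at least as many. The Nkd2 window held 14 (29.4% of windows held as many) and the Nkd1 window 6, which is the median of all windows. The TCF/LEF core was searched as CTTTGA and as CTTTGT on both strands, from 250 bases before to 50 bases after the start. The table held 5 such windows of 4 members (Axin2, Nkd2, Nkd1 and Rnf43), and 0 of the 5 held either motif. Across all windows 16.0% held CTTTGA, 18.7% held CTTTGT and 31.2% held at least 1 of them. This says only that these letters are not in these windows.

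Ctnnb1, the gene of beta-catenin, had a value of 11.44 in the array labelled deficient and 11.29 in control, a difference of 0.15. It was therefore not lower where the label says beta-catenin is lacking. It is unknown here which part of the gene was deleted and which part the probes cover. The reason for the Ctnnb1 value was not tested. That sample is therefore called the array labelled deficient, and each direction rests on its label. The cells carried macrophage markers in both arrays: 14 of 15 had a mean value at or above 7.28, the median of all values and the floor used here for dim genes, with Csf1r at 12.35 in the array labelled deficient and 12.25 in control, and Adgre1 at 12.23 in each. Cd163 was the exception, at 6.28 in the array labelled deficient and 6.18 in control. Of the 14, the Fc receptor Fcgr1 (0.78) and complement C1qb (0.78) were highest, and lysozyme, Lyz2 (-0.38), and the transcription factor Spi1 (-0.17) lowest. The median difference of all genes was -0.15, and another scaling of the arrays moved it by 0.15 to 0.16, so each member's difference is also given relative to that median.

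Of the 9 members, Axin2 was the single gene at least 1.5-fold lower in the array labelled deficient and Nkd2 the single gene at least 1.5-fold higher, which left 7 within 1.5-fold (0.585 on the log2 scale). Across all 19871 genes, 13.0% were at least 1.5-fold lower and 4.98% at least 1.5-fold higher. Among the 10176 genes with a mean value at or above the floor these shares were 8.36% and 7.03%. Read against these shares, counts of 1 and 1 among 9 genes do not set the list as a whole apart. As deposited, 27.7% of the 3580 genes past 1.5-fold were higher, and this share was 59.1% after quantile normalization, 52.6% after centring and 59.2% after removal of a loess trend on level. Axin2 and Nkd2 kept their direction and their place past 1.5-fold under each of these scalings. The median difference of the members was -0.17, beside -0.15 for all genes, with 7 members below 0 and 2 above it.

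**Figure D1:**
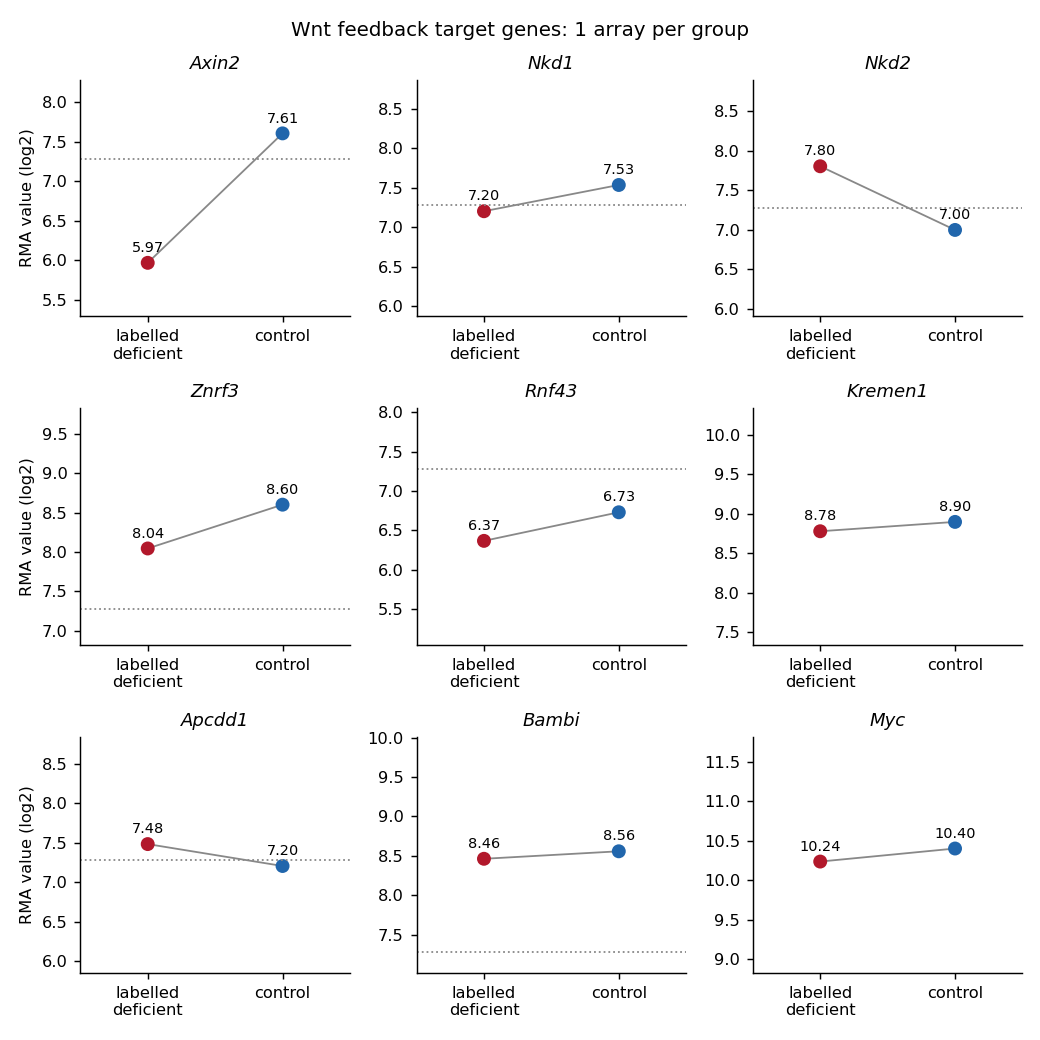
RMA values (log2) of the 9 members in the array labelled deficient (red, left) and in control (blue, right). Each panel spans 3 log2 units around the gene's own mean, each point is 1 array, and the dotted line marks 7.28, the median of all values. Axin2 has the steepest line, 5.97 in the array labelled deficient against 7.61 in control, and Nkd2 slopes the other way, 7.80 in the array labelled deficient against 7.00 in control.

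Axin2, a scaffold of the destruction complex that promotes the breakdown of beta-catenin, had a value of 5.97 in the array labelled deficient and 7.61 in control. The difference of -1.64 put it at 32.1% of control on the linear scale, 3.12-fold lower, and relative to the median of all genes it was -1.49. Axin2 passed the floor in control and not in the array labelled deficient. Of all 19871 genes, 29 had a difference at least as low, Axin2 included, which is 0.146%. Among the 3714 other genes with a mean value within 0.5 of its own, the median was -0.13, the central 80% ran from -0.53 to 0.34, and 4 genes (0.108%) were at least as low. Axin2 thus lay at the low edge of the genes of its own brightness on these arrays.

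The rest of the destruction complex did not share this size of difference. Of 16 genes of that complex, its regulators and the Dishevelled proteins, 0 were at least 1.5-fold higher and 0 at least 1.5-fold lower. Their median was -0.05 as deposited, beside -0.15 for all genes, and was above 0 after quantile normalization (0.06), centring (0.10) and loess (0.09). Axin1, the paralogue of Axin2 that is not a feedback target, had 9.13 in the array labelled deficient and 9.05 in control, a difference of 0.08. The lowest were the beta-catenin ubiquitin ligase subunits Fbxw11, with 9.77 in the array labelled deficient and 10.28 in control (-0.51), and Btrc, with 9.47 in the array labelled deficient and 9.97 in control (-0.49). The highest were the tankyrases Tnks2 (0.21) and Tnks (0.13), which mark axins for degradation.

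The naked cuticle genes Nkd1 and Nkd2 encode paralogous inhibitors that bind Dishevelled, and their differences had opposite signs. Nkd2 had 7.80 in the array labelled deficient and 7.00 in control, a difference of 0.81, or 175% of control. Relative to the median of all genes it was 0.96, and of 3046 other genes within 0.5 of its mean value, 132 (4.33%) were at least as high. Nkd1 had 7.20 in the array labelled deficient and 7.53 in control, a difference of -0.33, or 79.4% of control, and relative to the median of all genes -0.18. Of 3067 other genes near its level, 23.9% were at least as low, so Nkd1 lay well inside their spread. Each paralogue crossed the floor in 1 array: Nkd2 in the array labelled deficient and Nkd1 in control. Their partners Dvl1 (0.03), Dvl2 (-0.46) and Dvl3 (-0.12) were all within 1.5-fold, and Dvl3 changed sign under centring.

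**Figure D2:**
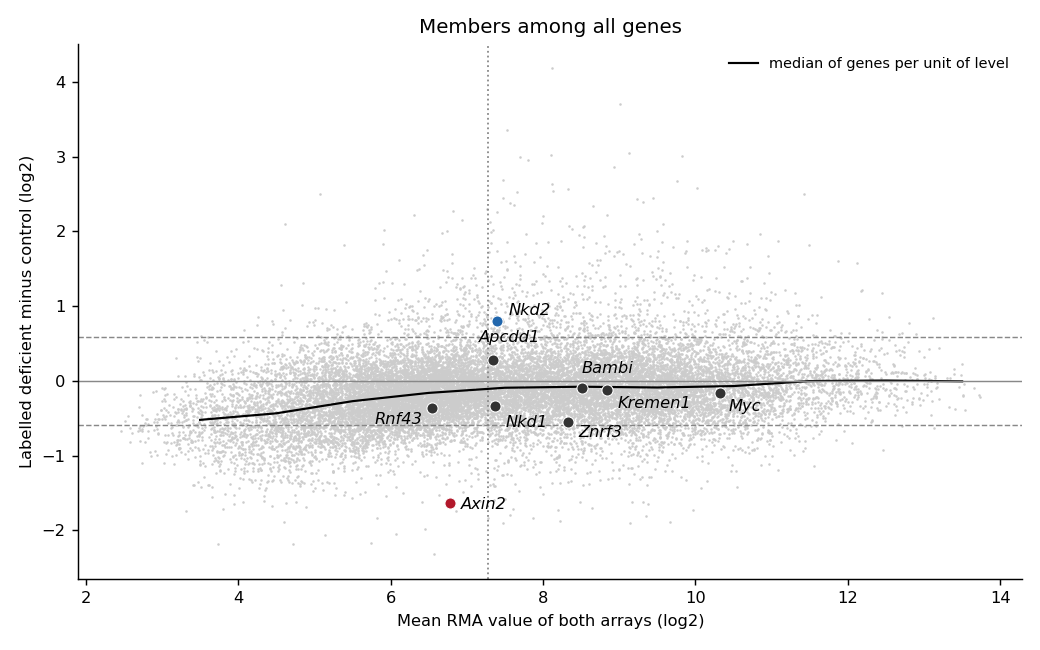
Difference (array labelled deficient minus control, log2) against the mean RMA value of both arrays (log2) for all 19871 genes (grey), with the 9 members named (red at least 1.5-fold lower, blue at least 1.5-fold higher, black in between). Dashed lines mark 1.5-fold, the dotted line the floor of 7.28, and the black line the median per unit of level, which was -0.52 from 3 to 4 and -0.09 from 7 to 8. Axin2 and Nkd2 lie outside the dashed lines, and the other 7 lie between them.

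Znrf3 and Rnf43 are paralogous membrane ubiquitin ligases that remove Frizzled receptors from the cell surface. Znrf3 had 8.04 in the array labelled deficient and 8.60 in control, a difference of -0.56, or 68.1% of control, just short of 1.5-fold. It was -0.40 relative to the median of all genes, and 9.41% of the 2932 other genes near its level were at least as low. Rnf43 had 6.37 in the array labelled deficient and 6.73 in control, a difference of -0.36 that was -0.21 relative to the median of all genes, and was the 1 member below the floor in both arrays. Of 3950 other genes near its level, 25.6% were at least as low. Both ligase genes were lower in the array labelled deficient, also under each scaling run here, with Znrf3 between -0.56 and -0.40 and Rnf43 between -0.36 and -0.20.

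Wnt receptor genes, among them those of the Frizzled receptors that these ligases remove, went both ways. Of 15 Frizzled, LRP and related receptor genes, 2 passed 1.5-fold upwards (3 after centring or loess) and 0 downwards. Their median of -0.08 was above 0 under the other scalings (0.04 to 0.07). The highest were Ryk, a Wnt-binding receptor with an inactive kinase domain, with 9.75 in the array labelled deficient and 8.67 in control (1.07), and Fzd1, with 8.25 in the array labelled deficient and 7.54 in control (0.70). Fzd9 was lowest, with 7.02 in the array labelled deficient and 7.60 in control (-0.57), and Fzd5 (-0.16) was next among those above the floor. The co-receptors were close to level, Lrp5 at 0.20 and Lrp6 at -0.02, where Lrp6 was above 0 under the other scalings.

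R-spondins are secreted proteins that, through the receptors Lgr4, Lgr5 and Lgr6, clear Znrf3 and Rnf43 from the membrane and so raise Wnt sensitivity. Of these 7 genes, 4 passed 1.5-fold in the higher direction and 0 in the lower one, and the median was 0.66. Rspo2 had 9.39 in the array labelled deficient and 7.36 in control, a difference of 2.03. Rspo1 (0.66), Rspo3 (0.73) and Lgr4 (0.86) were the other 3, and each had a mean value below the floor. Lgr6 (0.18) was the other gene above it. R-spondins are made largely by stromal cells. In the array labelled deficient 16 of 20 markers of fibroblasts and stroma were past 1.5-fold in the higher direction and 0 in the lower one, and their median was 1.03. Their summed linear value was 31230 in the array labelled deficient and 16812 in control, 2 of the 20 were below the floor in both arrays, and RMA gives no value of 0. Above the floor the chemokine Cxcl12 (2.87) and the growth factor receptor Pdgfra (2.12) were highest, and Mfap5 (-0.15) and fibronectin, Fn1 (0.22), lowest. The stromal list, like the other gene lists here, was chosen with earlier results of these data known. Its counts are therefore not an independent observation. The part of the stromal markers in the R-spondin values was not tested.

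Kremen1 is a receptor that, together with a Dickkopf ligand, removes LRP5 and LRP6 from the cell surface. It had 8.78 in the array labelled deficient and 8.90 in control, a difference of -0.12, which was 0.03 relative to the median of all genes. Of 2940 other genes near its level, 45.2% were at least as low, so it lay near their middle. Its paralogue Kremen2 was below the floor in both arrays, at 6.70 in the array labelled deficient and 6.80 in control. Of the 5 Dickkopf family genes, Dkk3 alone had a mean value at or above the floor, with 9.41 in the array labelled deficient and 8.16 in control (1.25). Dkk1 (-0.60) and Dkkl1 (-0.64) were lower as deposited, in the dim range, and neither was 1.5-fold lower after quantile normalization, centring or loess.

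Apcdd1, a membrane glycoprotein that binds Wnt ligands and LRP5, had 7.48 in the array labelled deficient and 7.20 in control, a difference of 0.28 or 121% of control. It was 0.43 relative to the median of all genes, and 16.5% of 3104 other genes near its level were at least as high. Apcdd1 and Nkd2 were the only members above 0 as deposited, and both crossed the floor in the array labelled deficient only. The stromal markers, with 16 of 20 at least 1.5-fold higher, moved in the same direction, and their part in the Apcdd1 and Nkd2 values was not tested. Secreted antagonists inhibit Wnt ligands outside the cell, and of these Sfrp1 (2.54), Sfrp2 (2.45) and Sfrp4 (3.02) differed far more and were higher. Sfrp5 (-0.23), Frzb (-0.03) and Wif1 (-0.14) were below the floor in both arrays. Wnt ligand genes showed no difference of this size. Of 19, 0 were at least 1.5-fold apart as deposited, though 2 were at least 1.5-fold higher under each other scaling, and 14 were below the floor in both arrays. Wnt4 (0.14, or 0.0004 when all its rows were averaged) and Wnt10a (0.02) had mean values above it.

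Bambi, a decoy receptor that lacks a kinase domain and dampens TGF-beta and BMP signalling, is a Wnt target in human cells. It had 8.46 in the array labelled deficient and 8.56 in control, a difference of -0.09 that was 0.06 relative to the median of all genes. Of 2905 other genes near its level, 48.3% were at least as low. The pathway that Bambi dampens has feedback targets of its own, and 2 of 8 of these were at least 1.5-fold lower and 0 higher. Beside this, 13.0% of all genes and 8.36% of those above the floor were at least 1.5-fold lower. The median of the 8 was -0.36, between -0.33 and -0.21 under the other scalings and -0.46 when all rows of a gene were averaged. The 2 lower genes were the helix-loop-helix inhibitor Id1, with 8.19 in the array labelled deficient and 9.06 in control (-0.86), and the inhibitory Smad6, with 7.40 in the array labelled deficient and 8.18 in control (-0.78). Smad7 differed by -0.44, Skil by -0.49, Id2 by -0.29, Smurf1 by -0.25 and Id3 by 0.35. Smurf2 differed by -0.02, was above 0 under the other scalings and -0.57 when all its rows were averaged. Of 17 receptors and signalling Smads, 2 passed 1.5-fold upwards (3 after quantile normalization, centring or loess) and 2 downwards. The BMP receptor Bmpr2 (-0.88) and the TGF-beta receptor Tgfbr1 (-0.79) were lowest, and the co-receptor Tgfbr3 (1.18) and the BMP receptor Bmpr1a (0.78) were highest.

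Myc, a transcription factor for growth genes with many inputs besides Wnt, had 10.24 in the array labelled deficient and 10.40 in control. The difference of -0.17, or 89.2% of control, was -0.01 relative to the median of all genes. Of 1732 other genes near its level, 40.0% were at least as low. Its dimer partner Max had 10.72 in the array labelled deficient and 10.74 in control (-0.02, above 0 after centring and loess). Among 11 genes of the Myc family and Max network, 1 was at least 1.5-fold higher, Mycn, with a mean value below the floor, and 0 lower. Among those above the floor the repressors Mxd4 (0.34) and Mxd1 (0.31) were highest and Mxd3 (-0.28) and Mxi1 (-0.21) lowest.

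Genes that Myc induces were likewise close to level. Of 22, 1 was at least 1.5-fold higher, 1 lower and 20 in between, with a median of -0.03 that was above 0 under the other scalings (0.02 to 0.12). The cyclin Ccnd2 (0.90) and the nucleolar gene Nop16 (0.44) were highest, and the transferrin receptor Tfrc (-0.63) and the nucleolar methyltransferase Fbl (-0.26) lowest. Tfrc, the 1 gene counted as lower, was within 1.5-fold under each other scaling, 3 genes passed 1.5-fold upwards after centring, and Fbl was 0.21 when all rows of a gene were averaged. Mitosis and replication genes differed more between these arrays: 7 of 17 were past 1.5-fold downwards and 0 upwards, and the median was -0.52. The downward count was 6 after quantile normalization or loess and 3 after centring, where the median was -0.36. The lowest were the mitotic kinesin Kif11 (-1.28) and the checkpoint kinase Bub1 (-1.08), and the highest the ribonucleotide reductase subunit Rrm2 (0.19) and the mitotic kinase Aurkb (0.10).

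Canonical Wnt targets outside the 9 members showed no single direction. Of 26 measured, 3 passed 1.5-fold upwards and 2 downwards as deposited, against 5 to 6 upwards and 1 downwards under the other scalings. Their median of -0.09 was above 0 under the other scalings (0.05 to 0.06), and 12 were below the floor in both arrays. Above the floor the highest were Vegfa, a growth factor that is also induced by low oxygen, with 10.96 in the array labelled deficient and 9.58 in control (1.38), and Ccn5 (1.08). The lowest were Birc5, a survivin gene expressed in mitosis (-0.89), and the hyaluronan receptor Cd44 (-0.19). Several of the targets most tied to Wnt activity in epithelia, Lgr5, Notum, Sp5 and Lef1, had mean values below the floor. Their differences ran from -0.47 to -0.13, and those of Notum and Sp5 were above 0 under the other scalings. Among the other dim targets, Tbx3 (0.53), Nrcam (0.48), Twist1 (0.45) and Ephb3 (0.37) were higher. Dkk1 (-0.60), Ascl2 (-0.44) and Mmp7 (-0.40) were lower. Zcchc12 (-0.08) and Tnfrsf19 (-0.04) were above 0 under the other scalings. The difference of Axin2 was below that of each of these 26 genes. Of 18 TCF/LEF factors and co-factors, 0 were at least 1.5-fold higher (2 after centring) and 1 lower, Ctnnbip1, an inhibitor of the beta-catenin and TCF interaction, at 8.09 in the array labelled deficient and 8.73 in control (-0.63), which was within 1.5-fold under the other scalings. Next was the acetyltransferase Ep300 (-0.53). Above the floor Jup (0.45), the homologue of beta-catenin, and Tcf7l1 (0.28) were highest, while Pygo1 (0.44), with a mean value below it, lay between them.

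**Figure D3:**
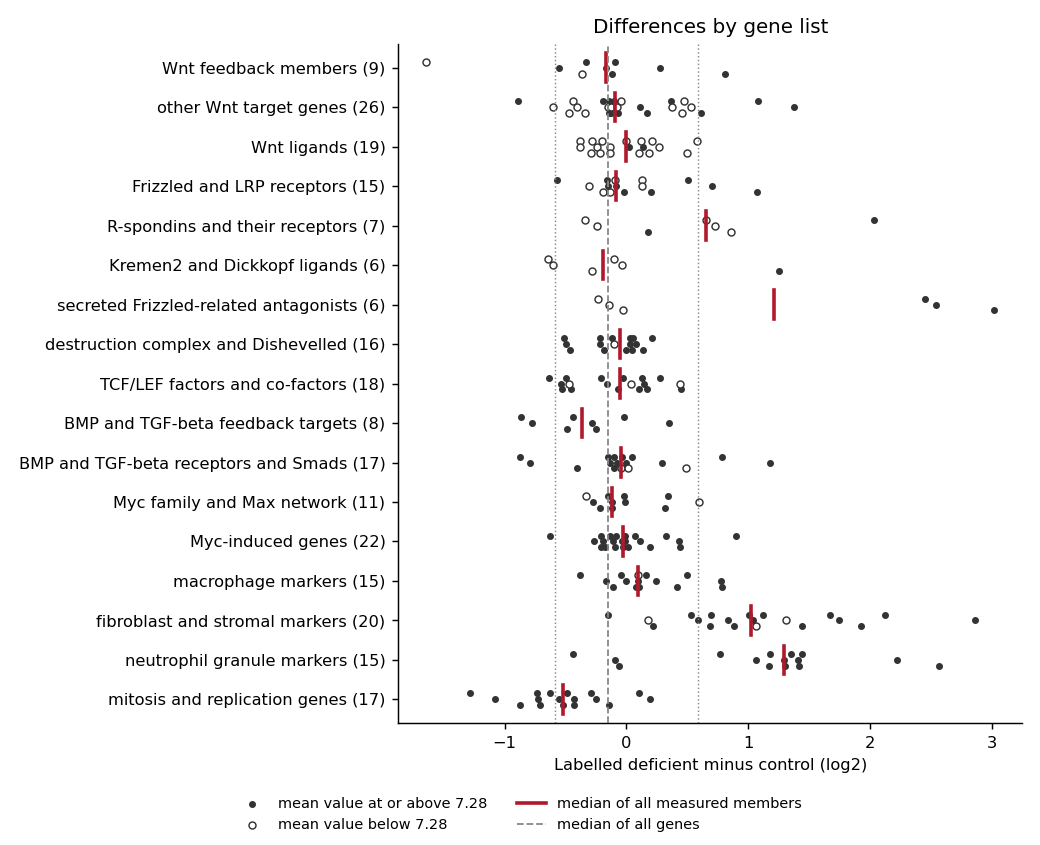
Difference (array labelled deficient minus control, log2) of each measured gene by list, with the number measured in brackets; filled points have a mean value at or above 7.28 and open points below it. Red bars are medians of all measured members of a list, the dashed line is the median of all genes (-0.15), and dotted lines mark 1.5-fold. Axin2 is the open point at -1.64 in the top row; the stromal and neutrophil rows lie mostly to the right, with medians of 1.03 and 1.30.

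Markers of other cell types differed between the arrays beside these results. For neutrophil granules, 12 of 15 genes passed 1.5-fold upwards and 0 downwards, and the median was 1.30. Their summed linear value was 21475 in the array labelled deficient and 10065 in control. The resistin-like gene Retnlg (2.57) and the peroxidase Mpo (2.22) were highest above the floor, and the antimicrobial peptide gene Camp (-0.43) and the granulocyte factor Cebpe (-0.10, above 0 after centring and loess) lowest. Of 7 endothelial markers, 1 was past 1.5-fold upwards as deposited, against 2 after loess and 3 after centring, and Vwf (0.51) and Cdh5 (0.44) had mean values above the floor. Of 4 B cell markers, 2 passed 1.5-fold upwards, and Cd79b (0.32) alone had a mean value above the floor. Of 6 T cell markers, 3 were past 1.5-fold downwards as deposited and 2 after quantile normalization or loess, and Cd4 (0.15), also made by some macrophages, alone had a mean value above the floor. The endothelial and B cell lists each had 3 genes below the floor in both arrays, and the T cell list 4. In a bulk culture, fewer cells that express a gene and less RNA of it per cell cannot be told apart. The part of cell composition in the values of Axin2 and the other members was not tested.

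By position in GRCm38.p6, 4 members (Axin2, Znrf3, Rnf43 and Kremen1) lie on chromosome 11, where Kremen1 and Znrf3 are each other's neighbour among protein-coding genes with a row. The genes flanking Axin2 were Cep112 (-0.21) and Rgs9 (-0.02), both dim. Those flanking Nkd2 were Slc12a7 (0.06) and Trip13 (0.29). Of 16 flanking genes that are not members, 3 were at least 1.5-fold lower and 0 higher, beside 13.0% and 4.98% of all genes. Their median was -0.14, close to the -0.15 of all genes. The 3 lower genes were Snx20 (-0.64), beside Nkd1 and above the floor, and the dim genes Lyzl1 (-0.75) and Spink13 (-1.44). Neither gene beside Axin2 passed 1.5-fold, but both lay below the floor in each array, at 6.17 (Cep112) and 6.42 (Rgs9) in control. Little can be read from such dim genes, and a difference shared with neighbouring genes was not tested.

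**Figure D4:**
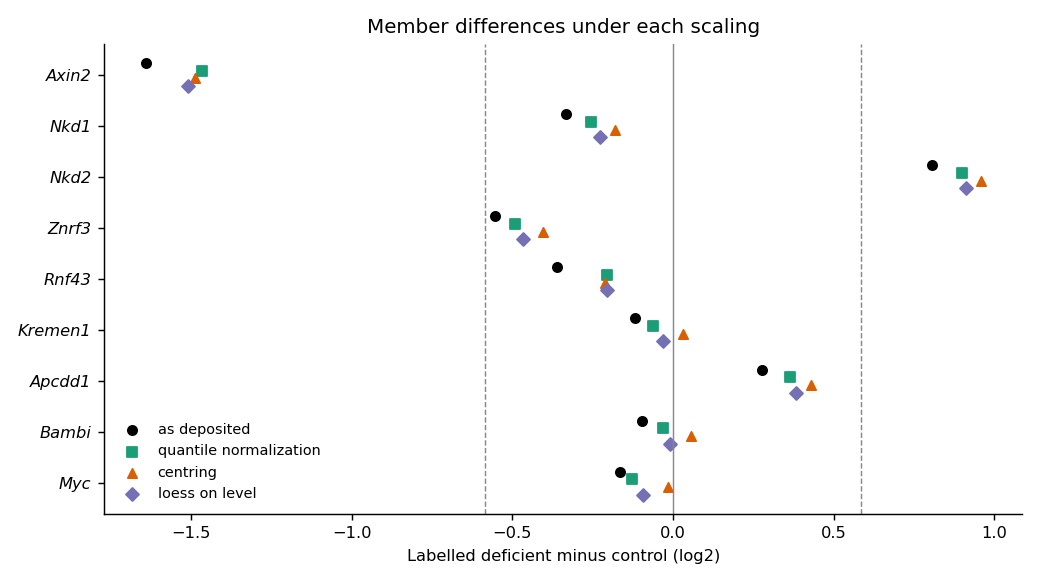
Difference (array labelled deficient minus control, log2) of the 9 members as deposited (circles), after quantile normalization of both columns (squares), after centring on the median of all genes (triangles) and after removal of a loess trend on level (diamonds). Dashed lines mark 1.5-fold. Axin2 stays between -1.64 and -1.46 and Nkd2 between 0.81 and 0.96, while Kremen1 and Bambi lie at or near 0 and change sign under centring.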

How the data were processed

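The deposited file gives, for each array, log2 values of 25917 transcript clusters. They were made with RMA, per the submitters' processing notes, a method that corrects background, normalizes between arrays and combines the probes of a cluster. The sources used here do not give its version or settings, or whether 1 run made both columns. The deposited control column carries up to 10 significant digits and the other up to 6. The median is 7.31 and the lowest value 2.70 in control, against 7.24 and 2.12 in the array labelled deficient. The 2 columns thus do not share 1 distribution. GEO's platform annotation named the rows: 21632 had 1 symbol, 1560 several and 2725 none, and 21537 of the first matched a RefSeq gene of GRCm38.p6 by Entrez ID. For each symbol the row with the highest mean of both columns was kept.

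Differences, counts past 1.5-fold and medians were computed with Python 3.11.15 and pandas 2.3.3, and the loess curve (span 0.3) with statsmodels 0.14.6. The computation of the scalings and counts was checked on simulated data with planted changes well past 1.5-fold and little noise. That checks the computation and not the counts reported here. No p-value was computed, since 1 array per group leaves no residual degrees of freedom, and the number of arrays limits the precision. The members and the 20 gene lists were chosen with earlier results of these data known. Named genes are the members, Ctnnb1, paralogues, partners and receptors, and the 2 highest and 2 lowest genes above the floor of each list, or all of them in a list of 9 or fewer. Dim list genes, flanking genes, Csf1r, Adgre1 and Cd163 were named after their values were seen. Upstream sequences are RefSeq's.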

Additional observations from a re-analysis of the deposited data

How the results depend on the processing

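Alternatives were quantile normalization, centring, loess on level and the mean of all rows of a gene. Averaging rows changed no member because each has 1 row. It changed the sign of Fbl and moved other genes with several rows, such as Smurf2 and Wnt4. Of 36 member values recomputed, 34 kept their sign. Kremen1 was 0.033 and Bambi 0.056 after centring. The count of members at least 1.5-fold lower was 0 when only members with a mean value at or above the floor were counted, which leaves out Axin2 at a mean of 6.79, and 1 in every other setting. The count at least 1.5-fold higher was 0 at 2-fold, where Nkd2 is passed over, and 1 otherwise. The members' median ranged from -0.17 to -0.01 over all settings. No paired analysis was possible because each group has 1 array, and no array could be left out for the same reason. Signal over background is unknown, since RMA values carry no detection call.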
